A study of Mus musculus with 16 samples.

Results

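Regulatory T cells (Tregs) that lacked the chemokine receptor CCR8 at the cell surface were compared between the infarcted heart and the mediastinal lymph node (MLN), the node that drains the chest. These were 8 of the 16 RNA libraries of a mouse study: 4 of heart CCR8- Tregs and 4 of MLN CCR8- Tregs, chosen by their labels and set against each other over all genes. All 16 libraries came from 8-week-old Foxp3-GFP mice, in which cells expressing Foxp3 are fluorescent, 7 days after myocardial infarction (MI), and neither uninjured mice nor other T cells were among them. About 100 Tregs per library were sorted magnetically and then by flow cytometry before RNA sequencing, and the 8 CCR8+ libraries (4 of heart, 4 of MLN) serve here for comparison. The labels do not say whether libraries came from separate mice or from pools, so the p-values measure the spread between libraries only.

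Tregs are CD4 T cells that carry the transcription factor Foxp3 and restrain other immune cells. Many of them circulate through lymph nodes, whereas Tregs that settle in injured tissue are known to take on a repair programme with amphiregulin (Areg), the interleukin 33 receptor ST2 (Il1rl1) and receptors of the tumour necrosis factor (TNF) family. CCR8 is one of the surface receptors used to mark activated Tregs in tissues, and the cells compared here were sorted as negative for it.

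Values are given on the deposited log2(FPKM + 1) scale, where FPKM is fragments counted for a gene, scaled by its length and by the depth of the library and 1 unit is a doubling of FPKM + 1. Of the 19195 genes kept, 10691 to 10906 were above 0 in the MLN CCR8- libraries and 11142 to 12704 in the heart CCR8- libraries. T cell RNA was present at a like level in both tissues: the mean of 12 general T cell markers was 8.28 ± 0.49 in heart and 8.30 ± 0.12 in MLN (SD, n = 4 each), with heart replicate 3 lowest at 7.58. RNA of other heart cells was also present in every heart CCR8- library. The mean of 20 fibroblast markers ranged from 2.33 to 4.03 in heart and from 0.08 to 0.53 in MLN, and that of 21 macrophage and monocyte markers from 2.69 to 4.21 in heart and from 0.44 to 0.60 in MLN. Endothelial markers (16 genes) averaged 0.76, 1.07, 5.79 and 1.70 in heart replicates 1 to 4, so replicate 3 stood apart, against 0.26 to 0.41 in MLN. Cdh5, which defines endothelium, was at 0.28, 0.82, 7.18 and 0.07 in heart, and the macrophage gene C1qa at 3.39 to 5.14. Cdh5, C1qa and the macrophage receptor Adgre1 were at 0 in all 4 MLN libraries, and Pdgfra, a fibroblast receptor, was at 0 in all 4 heart libraries. Adgre1 was low in most heart libraries too, at 0, 0, 2.63 and 0.07. Csf1r, another macrophage receptor, was at 0.03, 0.01, 0.81 and 1.8 in heart and at most 0.08 in MLN. The endothelial marker Pecam1 overlapped, with 4.58, 5.14, 7.24 and 4.24 in heart and 3.36 to 5.37 in MLN. Of the 20 fibroblast markers, 2 to 4 were at 0 in the heart libraries and 3 to 18 in the MLN libraries; of the 21 macrophage markers, 0 to 4 and 9 to 16. Cardiomyocyte markers averaged 0.29 to 2.01 in heart and 0.07 to 0.33 in MLN, and B cell markers 0.05 to 0.59 in heart and 0.26 to 2.03 in MLN. The MLN libraries also split among themselves: on the second principal component of the 8 libraries, with 15.5% of the variance, replicates 1 and 2 lay at 56.8 and 40.9 and replicates 3 and 4 at -37.8 and -53.8. The first component, with 28.7%, separated the 2 tissues.

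**Figure D1:**
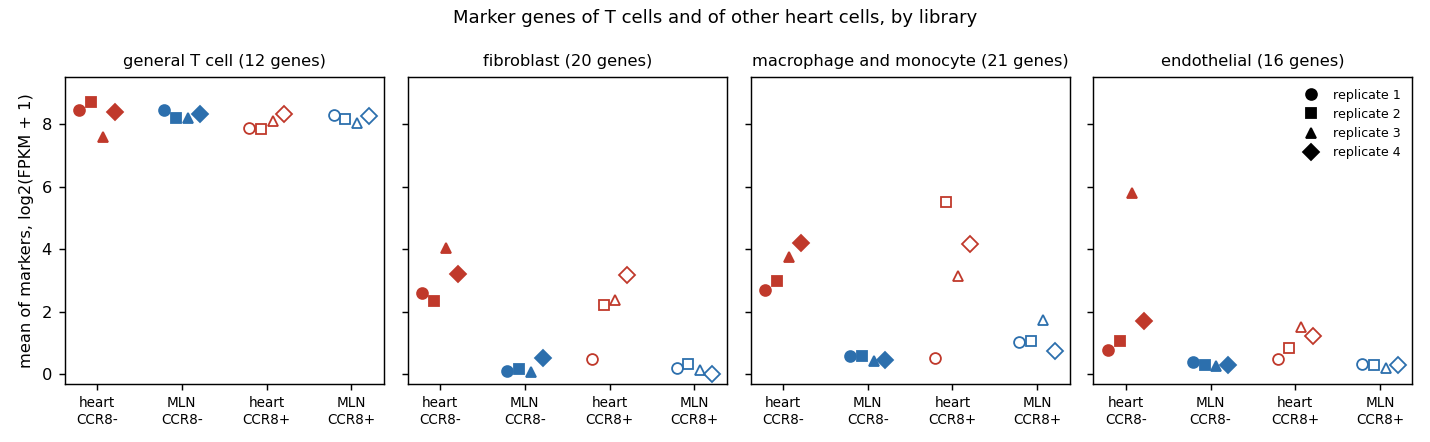
Mean of marker genes on the log2(FPKM + 1) scale (vertical axis) in each library of the 4 groups, for T cells, fibroblasts, macrophages and monocytes, and endothelial cells. Each point is 1 library and its shape gives the replicate number. T cell markers lay between 7.58 and 8.72 in all 16 libraries, while endothelial markers reached 5.79 in heart CCR8- replicate 3 and fibroblast markers were at 0.49 in heart CCR8+ replicate 1.

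Of 10369 genes tested, 473 (4.56%) differed between heart and MLN at an adjusted p under 0.05 (limma, Benjamini-Hochberg over all genes tested). Of these, 306 (2.95%) were higher in heart and 167 (1.61%) were lower. At an unadjusted p under 0.05 these shares were 8.67% and 9.77% of all tested genes, against which the unadjusted counts of the gene lists below are to be read. The lists were chosen with earlier results of these data known. A list count above these shares is therefore a description and not a separate test. The median difference over all tested genes was -0.10 on the log2 scale. Among the genes called higher, 267 had all 4 heart libraries above all 4 MLN libraries, against 5.24% of all tested genes; among those called lower, 145 had them all below, against 4.70%. The number of calls depended on the libraries used: it was 286 without MLN replicate 3 and 266 without MLN replicate 4, 325 and 338 without heart replicates 2 and 3, and 483 without MLN replicate 1. With the spread taken from the 2 compared groups alone, 204 genes were called. Fits that leave out a CCR8+ library change the estimate of the spread but not the group means compared. In all 16 fits that left out 1 library each, 144 of the 306 higher genes and 51 of the 167 lower genes kept their call. Unless stated otherwise, the genes described below as higher or lower are among these.

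**Figure D2:**
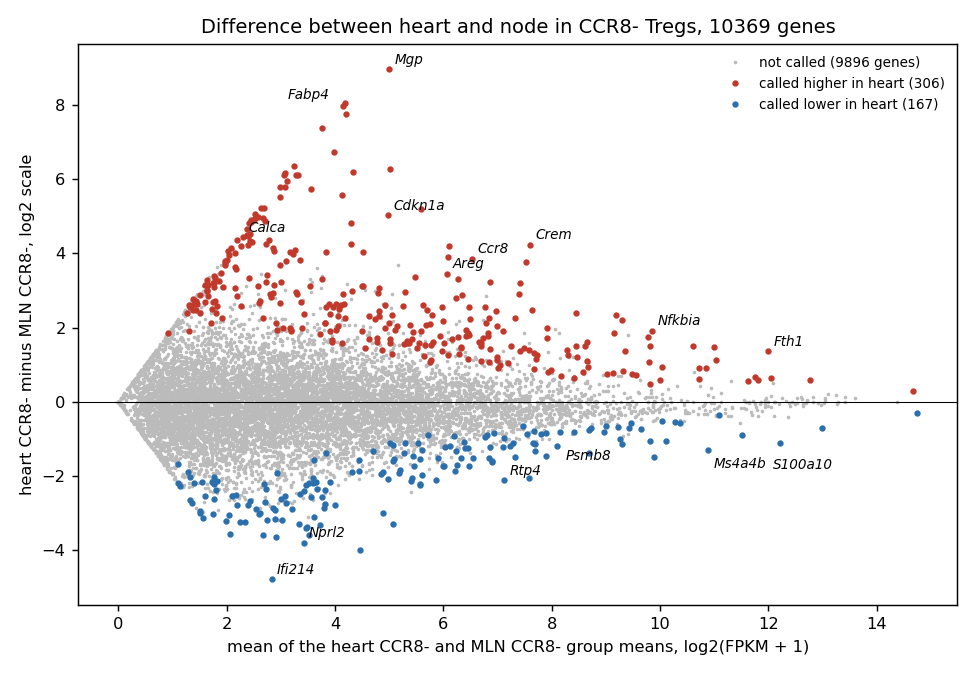
Difference between heart and MLN CCR8- Tregs on the log2 scale (vertical axis) against the mean of the 2 group means (horizontal axis) for the 10369 genes tested. Red points are the 306 genes called higher in heart and blue points the 167 called lower; Mgp, at 8.96, had the largest difference upwards and Ifi214, at -4.78, the largest downwards.

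Ccr8 itself (chromosome 9, 120092114 to 120094906, plus strand, GRCm38, GENCODE M21) had one of the 2 smallest p-values. Its values in heart CCR8- Tregs were 8.56, 8.20, 8.73 and 8.33, and those in MLN CCR8- Tregs were 4.33, 4.80, 5.41 and 3.85. All 4 heart libraries thus lay above all 4 MLN libraries, and the difference of 3.86 ± 0.29 (SE) was 14.5-fold in FPKM + 1 (adjusted p = 1.7e-07). Ccr8 RNA in heart cells sorted as CCR8- also lay just above that in MLN cells sorted as CCR8+, which had 7.39, 8.18, 7.48 and 8.06, while the heart CCR8+ libraries had 9.75 to 10.32. RNA and surface protein are different quantities, and the sort was made on the protein.

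Several of the genes with the next smallest p-values have general cell functions. Atp5md, a small subunit of the mitochondrial ATP synthase, read 11.74, 11.89, 11.53 and 11.74 in heart and 10.31, 10.29, 10.12 and 10.29 in MLN, a difference of 1.48 ± 0.11 (adjusted p = 1.7e-07). Fth1, the ferritin heavy chain that stores iron, rose by 1.36 ± 0.14 from 11.32 ± 0.07 to 12.68 ± 0.27 (SD; adjusted p = 1.06e-05); near-identical copies of this gene elsewhere in the genome make its level uncertain. Kdm6b, a demethylase of histone H3 lysine 27, was at 6.04, 6.95, 6.10 and 6.31 in heart and 3.43, 3.07, 3.71 and 2.92 in MLN (difference 3.07 ± 0.33, adjusted p = 3.06e-05). Odc1, ornithine decarboxylase, which starts polyamine synthesis, was higher by 2.90 ± 0.35 (adjusted p = 9.18e-05). Arf4, a small GTPase of Golgi traffic, was higher by 1.60 ± 0.20 (adjusted p = 9.18e-05). None of these 5 genes overlapped between heart and MLN.

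Foxp3, Ikzf2 and Il2ra did not pass the test, while other Treg identity genes did. Foxp3 was at 5.06, 5.92, 5.01 and 5.46 in heart and at 5.72, 4.92, 4.91 and 4.87 in MLN, and these ranges overlapped (difference 0.26 ± 0.41, adjusted p = 0.796). Ikzf2, which encodes the Treg factor Helios, differed by 0.42 ± 0.31 (adjusted p = 0.509), and Il2ra, the interleukin 2 receptor alpha chain, by 0.94 ± 0.49 (adjusted p = 0.322). Of 15 Treg identity genes tested, 3 were higher and none was lower (7 and 0 at an unadjusted p under 0.05), with a median difference of 1.02 against -0.10 for all genes. The mean level of the list was 5.89 to 6.74 in the heart libraries and 5.04 to 5.59 in the MLN libraries. The 3 called genes were Tnfrsf18, Ctla4 and Cish.

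The TNF family receptors Tnfrsf9, Tnfrsf4, Tnfrsf1b and Tnfrsf18 were higher in heart. Tnfrsf9 (4-1BB), a receptor of activated T cells, was at 7.90, 7.93, 7.14 and 8.02 in heart and at 4.25, 5.52, 5.16 and 5.79 in MLN, a difference of 2.57 ± 0.35 (adjusted p = 0.00028). Tnfrsf4 (OX40) was at 10.69, 10.28, 10.27 and 11.03 against 9.09, 9.44, 8.49 and 9.26, a difference of 1.49 ± 0.21 (adjusted p = 0.000322). Tnfrsf1b (TNF receptor 2), through which TNF supports Treg expansion, was at 5.85 to 6.46 in heart and 3.34 to 4.15 in MLN, a difference of 2.33 ± 0.39 (adjusted p = 0.00157). Tnfrsf18 (GITR) was higher by 1.06 ± 0.18 (adjusted p = 0.00141), with 9.71 to 10.72 in heart and 9.06 to 9.55 in MLN. For each of these 4 receptors every heart library lay above every MLN library. Cd83, an activation marker, was also called (1.45 ± 0.38, adjusted p = 0.0331), but its ranges overlapped and its call was lost in 5 of the 16 fits that each omit 1 library. Together 4 of 20 effector and checkpoint receptors tested were higher and none was lower (8 and 0 at an unadjusted p under 0.05), with a median of 1.10.

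Ctla4, the inhibitory receptor through which Tregs remove co-stimulatory ligands from other cells, depended on which MLN libraries were used. It was at 11.11, 10.82, 9.90 and 10.80 in heart and at 10.03, 9.90, 7.66 and 8.04 in MLN, so that MLN replicates 1 and 2 reached or passed the lowest heart library. The difference was 1.75 ± 0.41 (adjusted p = 0.0171), and the call was lost without MLN replicate 3 or without MLN replicate 4, with the highest adjusted p at 0.0656. Cish, a feedback inhibitor induced by interleukin 2 signalling, was higher by 2.10 ± 0.43 (adjusted p = 0.00647), with no overlap and with its call kept in all 16 fits. Batf, a factor needed by tissue Tregs, was at 8.45 ± 0.61 in heart and 8.59 ± 0.48 in MLN (adjusted p = 0.874). Klrg1, a marker of terminally differentiated Tregs, was at 5.84, 6.32, 0.04 and 7.22 in heart and 5.21 to 6.52 in MLN (adjusted p = 0.669), with heart replicate 3 near 0.

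**Figure D3:**
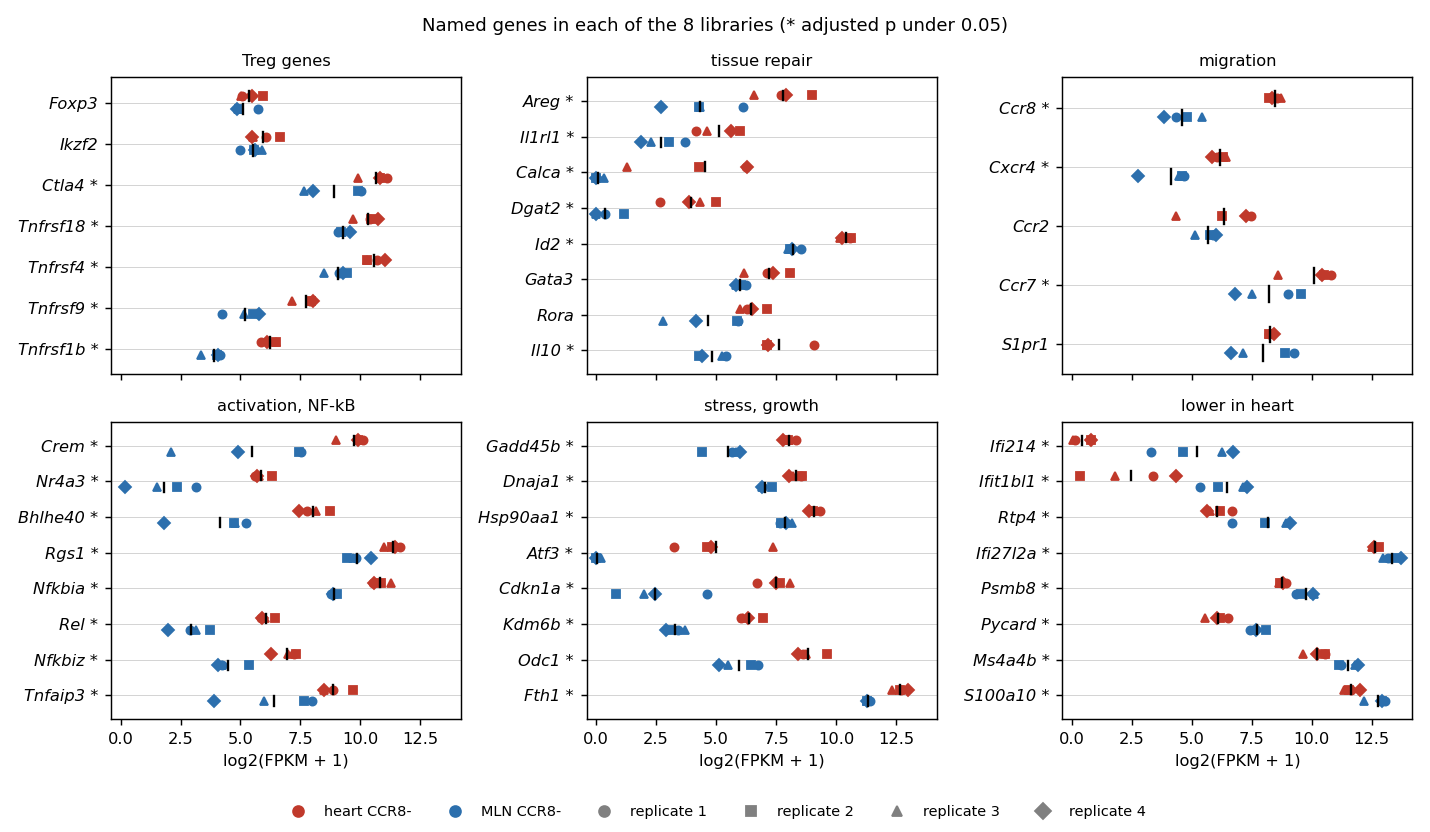
Values on the log2(FPKM + 1) scale (horizontal axis) of named genes in the 4 heart CCR8- (red) and 4 MLN CCR8- libraries (blue); shapes give the replicate number, black bars the group means, and a star an adjusted p under 0.05. Ccr8 lay at 8.20 to 8.73 in heart and 3.85 to 5.41 in MLN, while Foxp3 overlapped between the tissues.

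Several genes of the tissue repair programme were higher in heart, with levels that varied between libraries. Of 25 tested, 9 were higher and none was lower (13 and 0 at an unadjusted p under 0.05), with a median of 1.23; 4 of the 9 kept their call in all 16 fits. Areg, the epidermal growth factor receptor ligand, was at 7.69, 9.0, 6.56 and 7.93 in heart and at 6.10, 4.27, 4.31 and 2.70 in MLN. The groups did not overlap, although the lowest heart library and the highest MLN library were 6.56 and 6.10, and the difference was 3.45 ± 0.64 (adjusted p = 0.00364). Id2, a transcriptional regulator of effector and tissue lymphocytes, was at 10.58, 10.63, 10.17 and 10.25 against 8.55, 8.10, 8.00 and 8.17, with a difference of 2.20 ± 0.27 (adjusted p = 9.18e-05). Calca, which encodes calcitonin and the peptide CGRP, was at 6.23, 4.29, 1.29 and 6.28 in heart and was listed at 0 in 3 MLN libraries and at 0.34 in replicate 3. Its difference was 4.44 ± 0.79 (adjusted p = 0.00245). Ramp3, which pairs with the calcitonin receptor-like receptor, was at 8.98 to 9.89 in heart and at 8.38, 7.85, 2.51 and 3.83 in MLN. It was higher by 3.78 ± 0.91 (adjusted p = 0.0224), but the call was lost in 4 of the 16 fits.

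The receptor and factors that direct this programme gave weaker evidence. Il1rl1, the receptor of the alarmin interleukin 33, was at 4.16, 6.0, 4.60 and 5.63 in heart and at 3.70, 3.03, 2.30 and 1.85 in MLN, without overlap (difference 2.38 ± 0.53, adjusted p = 0.0137). Its call was lost without heart replicate 2 or without MLN replicate 4, with the highest adjusted p at 0.0516. Gata3, which drives Il1rl1 expression, differed by 1.21 ± 0.39 (adjusted p = 0.0881). Rora, a nuclear receptor of Tregs in tissue, differed by 1.80 ± 0.54 (adjusted p = 0.0606). Pparg, the nuclear receptor of fat tissue Tregs, was at 3.11, 2.42, 0.06 and 0 in heart and at most 0.47 in MLN (adjusted p = 0.396). Il10, a suppressive cytokine, was at 9.10, 7.12, 7.14 and 7.18 against 5.43, 4.28, 5.23 and 4.42, without overlap. Its spread over all 4 groups left it near the threshold (difference 2.79 ± 0.79, adjusted p = 0.0489), and the call was lost in 14 of the 16 fits. The SD was 0.98 in heart CCR8-, 0.57 in MLN CCR8-, 0.83 in heart CCR8+ and 2.29 in MLN CCR8+ libraries. Hif1a, the oxygen-regulated factor, was higher by 1.05 ± 0.25 (adjusted p = 0.0199), a call lost in 3 of the 16 fits.

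Genes of triglyceride synthesis and storage were among those higher in heart. Dgat1 and Dgat2 encode the 2 enzymes that make triglyceride from diacylglycerol. Dgat1 was at 7.57, 9.27, 7.87 and 8.16 in heart and at 6.29, 5.05, 1.19 and 3.51 in MLN (difference 4.21 ± 0.84, adjusted p = 0.0057). Dgat2 was at 2.67, 5.01, 4.33 and 3.86 against 0.38, 1.14, 0 and 0 (3.59 ± 0.71, adjusted p = 0.00495). Neither overlapped, and the wide MLN range of Dgat1 followed the split of the MLN replicates. Hilpda, an inhibitor of lipid breakdown on lipid droplets, was at 8.59, 8.79, 8.04 and 8.38 in heart and at 5.76, 5.51, 6.92 and 6.61 in MLN (2.25 ± 0.29, adjusted p = 0.000148). Plin2, a lipid droplet coat protein, overlapped between tissues (1.90 ± 0.52, adjusted p = 0.043) and lost its call in 11 of the 16 fits. Of 19 lipid and cholesterol genes tested, 5 were higher and none was lower (6 and 1 at an unadjusted p under 0.05), with a median of 0.64, and only Dgat1 among the 5 kept its call in all 16 fits.

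Apart from Ccr8, few receptors of migration differed. Of 13 chemokine receptors tested, 2 were higher and none was lower (2 and 0 at an unadjusted p under 0.05), with a median of 0.22. The other one was Cxcr4, the receptor of CXCL12, at 6.06, 6.31, 6.43 and 5.83 in heart and 4.69, 4.58, 4.48 and 2.74 in MLN (difference 2.04 ± 0.40, adjusted p = 0.00495). Ccr2, the receptor of CCL2, was at 7.48, 6.24, 4.34 and 7.27 in heart and at 5.12 to 6.0 in MLN, and the groups overlapped (adjusted p = 0.64).

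Of the genes of resting, recirculating T cells, those called lower kept their call in all 16 fits and the 1 called higher did not. Ms4a4b, a membrane protein of T cells, was lower in heart, at 10.56, 10.54, 9.65 and 10.21 against 11.22, 11.13, 11.81 and 11.95 in MLN (-1.29 ± 0.20, adjusted p = 0.000756). Its relative Ms4a6b was lower by -1.49 ± 0.25 (adjusted p = 0.00126). In both genes each heart library lay below each MLN library. Ccr7, the receptor that guides T cells into lymph nodes, was in contrast called higher in heart (1.87 ± 0.52, adjusted p = 0.0449), with 10.81, 10.52, 8.60 and 10.41 against 9.01, 9.56, 7.51 and 6.80. These ranges overlapped, and its call was lost in 11 of the 16 fits. S1pr1, the receptor for exit from nodes, Klf2, the factor that induces it, and Tcf7, a factor of resting T cells, did not pass the test (adjusted p = 0.786, 0.386 and 0.935). Over 23 resting lymphoid genes, 1 was higher and 3 were lower, with a median of -0.08.

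Several genes that respond to the T cell receptor were higher in heart. Of 20 tested, 6 were higher and none was lower (13 and 0 at an unadjusted p under 0.05), with a median of 1.34. Nr4a3, an orphan nuclear receptor induced within hours of antigen signalling, was at 5.59, 6.33, 5.79 and 5.69 in heart and at 3.16, 2.34, 1.53 and 0.20 in MLN (difference 4.04 ± 0.66, adjusted p = 0.00109). Bhlhe40, a transcription factor of activated T cells, was at 7.78, 8.72, 8.16 and 7.45 against 5.21, 4.75, 4.77 and 1.81 (3.89 ± 0.56, adjusted p = 0.000453). Rgs1, which dampens chemokine receptor signalling, was at 10.97 to 11.67 against 9.46 to 10.44 (1.51 ± 0.23, adjusted p = 0.000663). Crem, a cAMP-responsive factor, was at 10.12, 9.89, 8.97 and 9.90 in heart and at 7.54, 7.42, 2.09 and 4.90 in MLN (4.23 ± 0.81, adjusted p = 0.00428). No heart library of these 4 genes lay within the MLN range, and Crem showed the MLN split most widely. By contrast, none of 25 genes of the T cell receptor signalling machinery was called (limma; 2 higher and 2 lower at an unadjusted p under 0.05).

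The NF-kB pathway carries signals from TNF family receptors and the T cell receptor, and induces its own inhibitors. Of 24 pathway genes tested, 6 were higher and none was lower (12 and 0 at an unadjusted p under 0.05), with a median of 1.07. Nfkbia, the inhibitor IkBa, was at 10.54, 10.86, 11.27 and 10.56 in heart and at 8.77, 9.04, 8.88 and 8.87 in MLN, a difference of 1.92 ± 0.20 (adjusted p = 2.13e-05). Rel, the subunit c-Rel that Tregs need for their development, was at 5.87, 6.43, 6.04 and 5.90 against 2.90, 3.74, 3.15 and 1.96 (3.12 ± 0.38, adjusted p = 9.18e-05). Nfkbiz, a nuclear IkB protein, was at 6.27 to 7.30 against 4.07 to 5.36 (2.48 ± 0.40, adjusted p = 0.00105). These 3 genes did not overlap between tissues. Tnfaip3 (A20), an enzyme that shuts the pathway off, was at 8.84, 9.67, 8.48 and 8.5 in heart and at 8.00, 7.64, 5.99 and 3.91 in MLN (2.48 ± 0.61, adjusted p = 0.0235), and its call was lost without heart replicate 2 or without MLN replicate 3. Traf1, an adaptor of TNF receptors, was higher by 1.77 ± 0.39 (adjusted p = 0.0137), a call lost without heart replicate 2 or without MLN replicate 4.

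Promoters of 4 of these genes are printed because each holds a motif of the factors named above: Nfkbia and Tnfaip3 as feedback inhibitors of NF-kB, Tnfrsf9 as the one of the 4 TNF family receptors above with the largest difference, and Areg as a repair gene. Each runs from 250 bases before to 50 bases after a RefSeq transcript start on GRCm38.p6, on the gene's strand and in the order 5′ to 3′, with matches in capitals. Searched on both strands were the NF-kB consensus, the AP-1 motif TGANTCA and the cAMP response element TGACGTCA. In Nfkbia the capitals are 1 NF-kB match. In Tnfaip3 they are an AP-1 match followed by 2 NF-kB matches, and in Tnfrsf9 a pair of overlapping NF-kB matches and then an AP-1 match. In Areg they are the cAMP response element. Further annotated starts of Tnfaip3 and Tnfrsf9 held no match. The promoter of Ccr8 was searched as well, held no match to any of these motifs and is not printed.
Nfkbia (chr12:55492598-55492897, minus strand): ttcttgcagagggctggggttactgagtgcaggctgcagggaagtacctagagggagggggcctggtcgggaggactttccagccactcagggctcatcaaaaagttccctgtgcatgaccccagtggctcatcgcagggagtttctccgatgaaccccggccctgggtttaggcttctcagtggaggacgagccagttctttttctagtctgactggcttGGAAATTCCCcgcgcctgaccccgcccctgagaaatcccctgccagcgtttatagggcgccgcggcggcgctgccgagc
Tnfaip3 (chr10:19015361-19015660, minus strand): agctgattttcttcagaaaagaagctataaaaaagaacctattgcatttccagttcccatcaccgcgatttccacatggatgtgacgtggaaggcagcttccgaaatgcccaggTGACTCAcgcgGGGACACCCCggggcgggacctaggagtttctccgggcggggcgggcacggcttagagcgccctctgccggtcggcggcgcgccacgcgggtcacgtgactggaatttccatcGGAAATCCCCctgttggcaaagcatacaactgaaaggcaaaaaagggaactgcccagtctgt
Tnfrsf9 (chr4:150927749-150928048, plus strand): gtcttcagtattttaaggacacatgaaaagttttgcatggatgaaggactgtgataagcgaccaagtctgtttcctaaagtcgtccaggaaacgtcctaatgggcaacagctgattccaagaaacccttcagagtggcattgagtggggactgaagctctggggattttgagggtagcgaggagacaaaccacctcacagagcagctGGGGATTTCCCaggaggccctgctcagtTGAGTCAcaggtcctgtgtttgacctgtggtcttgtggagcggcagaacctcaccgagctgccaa
Areg (chr5:91139349-91139648, plus strand): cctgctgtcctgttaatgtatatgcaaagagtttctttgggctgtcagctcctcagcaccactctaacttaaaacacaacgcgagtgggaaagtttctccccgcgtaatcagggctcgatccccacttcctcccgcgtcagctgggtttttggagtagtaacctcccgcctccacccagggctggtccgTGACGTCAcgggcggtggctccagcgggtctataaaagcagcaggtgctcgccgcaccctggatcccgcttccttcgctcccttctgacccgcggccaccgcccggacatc
The NF-kB consensus was present in 8.46% of the 32851 promoters of the table, in 10.2% of those of tested genes, in 14.1% of those of genes called higher and in 8.74% of those of genes called lower. For the AP-1 motif these shares were 7.81%, 4.95%, 9.4% and 6.01%, and for the cAMP response element 1.79%, 3.18%, 6.27% and 2.73%. Promoters were matched by symbol for 239 of the 306 higher and 142 of the 167 lower genes. The shares are descriptions of the printed window, and no test was made of them.

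AP-1 and stress genes were the function list with the most calls. Of 27 tested, 17 were higher and none was lower (26 and 0 at an unadjusted p under 0.05), all 27 differences were above 0, and the median was 1.61. Of the 17, 12 kept their call in all 16 fits. These genes are induced by antigen and cytokines, and many are also known to rise when tissue is dissociated; whether that happened here was not tested. Junb, an AP-1 subunit, was at 9.52, 10.58, 9.70 and 8.82 in heart and at 7.41, 7.17, 7.57 and 6.86 in MLN (difference 2.40 ± 0.45, adjusted p = 0.00381). Gadd45b, an NF-kB and stress response gene, was at 8.31, 8.01, 8.05 and 7.78 against 5.66, 4.42, 5.84 and 6.01 (2.55 ± 0.35, adjusted p = 0.000333). The co-chaperone gene Dnaja1 and the chaperone gene Hsp90aa1 were higher by 1.31 ± 0.19 and 1.20 ± 0.19 (adjusted p = 0.000482 and 0.000854). Zfp36l1, which promotes decay of AU-rich mRNAs, was higher by 1.98 ± 0.34 (adjusted p = 0.00175). All 5 of these genes separated heart from MLN in every library.

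Some stress genes were highest in the heart library with the most RNA of other cells. Atf3, a stress-induced factor, was at 3.24, 4.60, 7.37 and 4.78 in heart and at 0 to 0.19 in MLN (4.95 ± 0.79, adjusted p = 0.000989). Fos was at 6.23, 7.07, 8.97 and 7.28 in heart and at 4.89, 4.96, 6.71 and 5.58 in MLN, with overlap (1.85 ± 0.49, adjusted p = 0.0376), and its call was lost in 6 of the 16 fits. Egr1, an immediate early factor, was at 5.29, 6.28, 8.46 and 4.58 against 3.12 to 4.46 and did not pass the test (adjusted p = 0.0603). In each of these 3 genes heart replicate 3, the library with the most endothelial RNA, was highest. The same replicate was the highest heart CCR8- library in 93 of all 306 genes called higher. With the marker level as a covariate the differences of Atf3, Fos and Egr1 were 1.35, 0.31 and -0.17 (limma, adjusted p = 0.648, 0.936 and 0.969). Cdkn1a, the cell cycle inhibitor p21, was at 6.71, 7.65, 8.10 and 7.5 in heart and at 4.61, 0.81, 1.98 and 2.44 in MLN (5.03 ± 0.60, adjusted p = 8.74e-05). It too was highest in heart replicate 3, and with the covariate its difference of 3.99 did not pass the test (adjusted p = 0.113). With the covariate only 14 genes in place of 473 were called, so a lost call does not set these genes apart. Which cells held this RNA was not tested.

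Genes lower in heart included several induced by interferon. Of 34 interferon response genes tested, 5 were lower and 1 was higher (13 and 3 at an unadjusted p under 0.05), with a median of -0.84, the lowest of the 29 function lists; 2 of the 5 kept their call in all 16 fits. The mean level of the list was 4.80, 4.15, 4.94 and 3.95 in heart and 4.16, 4.64, 5.6 and 5.8 in MLN. MLN replicates 1 and 2 thus lay within the heart range and replicates 3 and 4 above it. Rtp4, an interferon-induced chaperone of receptors, was at 6.66, 6.17, 5.78 and 5.65 in heart and at 6.66, 8.04, 8.92 and 9.08 in MLN, so MLN replicate 1 barely exceeded the highest heart library (-2.11 ± 0.41, adjusted p = 0.00447). Ifi27l2a, an abundant interferon-induced mitochondrial protein, was at 12.50 to 12.82 against 12.97 to 13.71 (-0.72 ± 0.15, adjusted p = 0.0065). The one that rose, Ifitm3, an inhibitor of virus entry, was at 6.56, 7.04, 10.99 and 8.12 in heart and at 0, 0.65, 6.0 and 5.28 in MLN (5.2 ± 1.16, adjusted p = 0.0137), and it lost its call without heart replicate 3.

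Interferon genes outside that list were among the largest decreases. Ifi214, of the IFI200 family of DNA sensors, was at 0.12, 0.81, 0.03 and 0.79 in heart and at 3.30, 4.64, 6.24 and 6.70 in MLN (-4.78 ± 0.65, adjusted p = 0.00028). Ifit1bl1, a relative of the interferon-induced Ifit1, was at 3.39, 0.33, 1.81 and 4.33 against 5.33, 6.11, 7.12 and 7.29 (-4.0 ± 0.75, adjusted p = 0.00375). In Ifi214, Ifit1bl1 and Rtp4 alike, MLN replicates 3 and 4 were the 2 highest of all 8 libraries. Phf11b, of the interferon-inducible Phf11 genes, was lower by -2.06 ± 0.35 (adjusted p = 0.00152). The calls of these 4 genes were kept in all 16 fits. Each fit leaves out 1 library, so none removes MLN replicates 3 and 4 together. Without both, 38 of all 167 lower genes kept their call, against 86 without MLN replicates 1 and 2.

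Psmb8 and Pycard were also lower. Of 24 proteasome genes tested, 3 were lower and none was higher (11 and 0 at an unadjusted p under 0.05), with a median of -0.44. Psmb8, a catalytic subunit of the immunoproteasome, was at 8.94, 8.66, 8.65 and 8.81 in heart and at 9.35, 9.54, 10.09 and 10.05 in MLN (-0.99 ± 0.16, adjusted p = 0.000856). Psmb10, another such subunit, was lower by -0.87 ± 0.21 (adjusted p = 0.0217), a call lost in 3 of the 16 fits. Pycard (ASC), the adaptor of inflammasomes, was at 5.57 to 6.51 in heart and 7.44 to 8.10 in MLN (-1.61 ± 0.24, adjusted p = 0.000611). None of these 3 genes overlapped between the tissues.

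Several genes of general cell function were low in heart and higher in MLN. Nprl2, a subunit of the GATOR1 complex that restrains mTORC1 when amino acids are scarce, was at 2.50, 1.83, 0.05 and 1.70 in heart and at 5.64, 4.62, 6.24 and 4.78 in MLN (-3.80 ± 0.58, adjusted p = 0.000769). Orc5, of the origin recognition complex, was at 2.98, 2.14, 0.07 and 1.75 against 5.34, 4.66, 5.37 and 5.88 (-3.58 ± 0.56, adjusted p = 0.000834). Selenoo, a mitochondrial selenoprotein, was at 0 to 0.93 against 3.60 to 3.98 (-3.55 ± 0.60, adjusted p = 0.00158), and Chchd4, which imports proteins into mitochondria, was at 0 to 2.83 against 4.34 to 5.79 (-3.30 ± 0.53, adjusted p = 0.000948). Heart replicate 3 was lowest for Nprl2 and Orc5. The number of reads behind these low values is unknown.

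Among abundant genes, S100a10 and Arhgdib were lower. S100a10, which binds annexin A2 at membranes, was at 11.64, 11.56, 11.35 and 12.03 in heart and at 13.05, 12.91, 12.18 and 12.94 in MLN (-1.12 ± 0.17, adjusted p = 0.000614). Arhgdib, a regulator of the actin cytoskeleton in lymphocytes, was at 11.22, 10.97, 10.64 and 11.41 against 12.13, 11.91, 11.74 and 12.05 (-0.89 ± 0.14, adjusted p = 0.000723). Both separated the tissues in all libraries.

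Most of the largest differences were in genes of other heart cells. Mgp, a matrix protein of fibroblasts and vessels, was at 9.07, 8.04, 12.03 and 8.73 in heart and at 0 to 1.47 in MLN (8.96 ± 1.17, adjusted p = 0.00019). Fabp4, a fatty acid binding protein of capillary endothelium, was at 5.67, 6.70, 12.11 and 8.39 against 0 to 0.66 (8.05 ± 0.97, adjusted p = 9.18e-05). Sparc, Dcn and Cthrc1, matrix genes of fibroblasts, were higher by 7.76 ± 1.05, 6.10 ± 0.73 and 4.82 ± 0.55, and Cthrc1 was listed at 0 in all 4 MLN libraries. The macrophage genes Spp1, C1qb, Lyz2, Apoe and Tyrobp were higher by 6.72, 6.36, 6.27, 6.19 and 6.17. Of 14 fibroblast markers tested, 10 were higher, and of 16 macrophage and monocyte markers, 9 were higher. None of either was lower, also at an unadjusted p under 0.05. The medians were 3.33 and 4.05. Of the 20 and 21 markers listed, only those with an FPKM of 1 in at least 4 libraries were tested. Both lists were near 0 in MLN CCR8- libraries, so members passed this filter largely through heart libraries, which favours such counts and medians.

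Several chemokine ligands were higher in heart together with these markers. Of 17 tested, 7 were higher and none was lower (9 and 0 at an unadjusted p under 0.05), with a median of 2.58. Cxcl1 and Cxcl2, which recruit neutrophils, were at 7.57, 6.68, 9.61 and 8.64 and at 7.57, 6.57, 8.57 and 7.14 in heart, and in MLN they did not exceed 0.34 and 0.28. Their differences were 7.96 ± 0.75 and 7.39 ± 0.73 (adjusted p = 6.37e-06 and 1.06e-05). With the marker level as a covariate these were 4.5 (adjusted p = 0.0178) and 5.73 (adjusted p = 0.0515).

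The marker level differed between the tissues in every CCR8- library, so the 2 cannot be fully told apart. The mean of fibroblast, endothelial and macrophage markers was 2.02, 2.13, 4.52 and 3.04 in heart CCR8- replicates 1 to 4 and 0.26 to 0.43 in MLN CCR8-. With it as a covariate, 14 genes in place of 473 remained called, and the median SE rose from 0.59 to 0.95. The direction was kept by 300 of the 306 higher and all 167 lower genes. These genes were called in the same libraries, so a kept direction is a description and not a separate test. Among the 14 genes still called were Ccr8 (3.59, adjusted p = 0.00288), Atp5md (1.63, adjusted p = 0.000231), Calca (6.52, adjusted p = 0.0347), Kdm6b (3.16, adjusted p = 0.0337), Odc1 (3.16, adjusted p = 0.0436), Hilpda (2.85, adjusted p = 0.0178) and Tnfrsf18 (1.44, adjusted p = 0.0476). The fibroblast matrix gene Cthrc1 was among them too (4.77, adjusted p = 0.0476), so a call kept with the covariate does not show which cells the RNA came from. In 1 heart library, CCR8+ replicate 1, the marker level was 0.51, close to that of MLN. In that library, which was sorted as CCR8+, Nfkbia was at 10.14, Tnfrsf9 at 8.56, Areg at 8.69 and Cxcl2 at 7.37. Atf3 was at 1.72 there against 4.52 to 5.46 in the other heart CCR8+ libraries, and Cxcl1 at 4.70 against 7.52 to 9.45. Of the genes of other heart cells, Mgp was at 0.60, Sparc at 0.57, Spp1 at 0.42 and C1qb at 0.50, but Fabp4 was at 3.90, Dcn at 3.76, Cthrc1 at 3.69 and Apoe at 3.23. Of the 306 genes called higher, 30 were listed at 0 in it, a count without a share over all tested genes beside it. In the same library 211 of the 306 (69.0%) lay above all 4 MLN CCR8- libraries, against 20.5% of all tested genes. The 306 were called against these MLN libraries, which favours such a position.

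**Figure D4:**
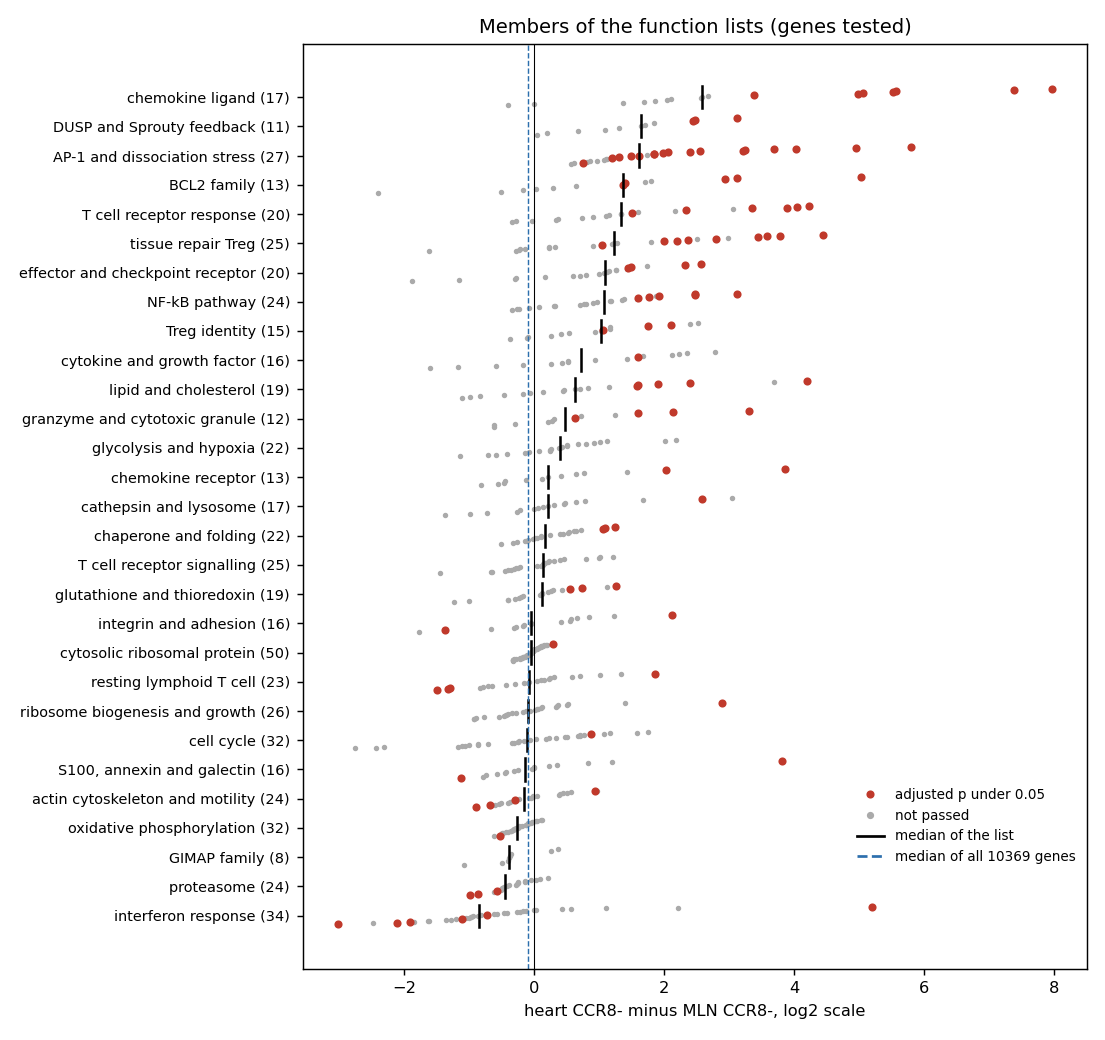
Difference between heart and MLN CCR8- Tregs on the log2 scale (horizontal axis) for each tested member of 29 lists of genes with a shared function; red points passed an adjusted p under 0.05, black bars are list medians and the dashed line is the median of all 10369 genes, -0.10. Chemokine ligands, with a median of 2.58, lie at the top and interferon response genes, with -0.84, at the bottom.

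Lists of ribosomal protein, oxidative phosphorylation, glycolysis, GIMAP and cell cycle genes held few calls, while some other lists held more. Of 50 cytosolic ribosomal protein genes, 1 was higher and none was lower (4 and 6 at an unadjusted p under 0.05), with a median of -0.04. Of 32 oxidative phosphorylation genes, 1 was lower and none was higher, with 12 lower at an unadjusted p under 0.05 and a median of -0.27. The mean level of this list was 9.08 to 9.28 in the heart libraries and 9.40 to 9.43 in the MLN libraries, without overlap. None of 22 glycolysis and hypoxia genes was called (limma; 3 higher and 1 lower at an unadjusted p under 0.05), nor any of 8 GIMAP genes, which encode GTPases of resting lymphocytes (0 and 1). Of 32 cell cycle genes, 1 was higher and none was lower (4 and 2 at an unadjusted p under 0.05). Of 11 DUSP and Sprouty genes, feedback inhibitors of MAP kinases, 3 were higher and none was lower (5 and 0 at an unadjusted p under 0.05), with a median of 1.64. Dusp4 among them was at 5.10, 4.25, 2.96 and 4.24 in heart and 1.04, 2.87, 0.13 and 0 in MLN (3.12 ± 0.79, adjusted p = 0.0295), a call lost in 5 of the 16 fits. Of 13 BCL2 family and survival genes, 5 were higher and none was lower (7 and 1 at an unadjusted p under 0.05). Only Cdkn1a, which is not of the BCL2 family, kept its call in all 16 fits, while Bcl2a1b, Bcl2a1d, Bcl2l1 and Pmaip1 did not. Of 24 actin and motility genes, 1 was higher and 3 were lower, Arhgdib among them, with a median of -0.15. Of 12 granzyme and granule genes, 4 were higher, among them Gzmb, granzyme B, at 8.47, 5.97, 7.83 and 9.41 in heart and 7.26, 4.61, 1.74 and 4.83 in MLN (3.31 ± 0.87, adjusted p = 0.0359). Its ranges overlapped, and its call was lost in 6 of the 16 fits.

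The same tissue comparison in CCR8+ Tregs shares no library with that in CCR8- Tregs, although both were fitted in 1 model. It gave 1015 called genes (9.79%), 603 higher (5.82%) and 412 lower (3.97%) in heart. Of the 306 genes higher in CCR8- Tregs, 202 (66%) were also called higher in CCR8+ Tregs, which was 33.5% of the genes called higher there. Of the 167 lower genes, 37 (22.2%) were also called lower, 8.98% of those called lower there, and 6 genes were called in opposite directions. Areg differed by 7.60 in CCR8+ and by 3.45 in CCR8- Tregs, Calca by 8.35 and 4.44, and Nfkbia by 1.16 and 1.92. The differences of Areg and Calca did not themselves differ at the threshold (adjusted p = 0.0506 and 0.146), nor did that of Ccr8, 2.23 in CCR8+ and 3.86 in CCR8- Tregs (adjusted p = 0.099).

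Tested directly, the tissue difference itself differed between CCR8- and CCR8+ Tregs in 42 genes (0.405%), with 12 higher and 30 lower in CCR8- Tregs. Of 19 such genes followed with 1 library left out at a time, 14 kept their call in all 16 fits; that of Klrg1 was lost in 13, Il1rl1 in 12, Ccr3 in 10, Myc in 7 and Snapc2 in 4. Id2 was higher in heart in both sorts, by 2.20 in CCR8- and 4.65 in CCR8+ Tregs (difference of differences -2.45 ± 0.38, adjusted p = 0.00335), and Il1rl1 by 2.38 and 5.86 (-3.48 ± 0.75, adjusted p = 0.0452). In both genes the MLN CCR8+ libraries were lowest, with Id2 at 5.54 to 7.15 and Il1rl1 at 0.04 to 1.79. S100a10 went in opposite directions, by -1.12 in CCR8- and 1.70 in CCR8+ Tregs (-2.82 ± 0.24, adjusted p = 3.28e-06). Its heart levels were 11.65 ± 0.28 and 12.22 ± 0.13, while its MLN levels were 12.77 ± 0.40 in CCR8- and 10.52 ± 0.20 in CCR8+ Tregs.

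Another group of genes did not pass the test between heart and MLN CCR8- Tregs and was lowest in MLN CCR8+ Tregs. Klrg1 was at 8.61 to 8.78 in heart CCR8+ and 0 to 5.06 in MLN CCR8+ Tregs (difference of differences -7.75 ± 1.69, adjusted p = 0.0482). Ccr2 was at 6.08 to 7.19 and 0.02 to 2.40 (-4.83 ± 0.88, adjusted p = 0.0118). S100a4, a calcium-binding protein of motile and effector cells, was at 11.83 to 12.86 and 2.59 to 8.76 (-6.62 ± 1.11, adjusted p = 0.00671), while in CCR8- Tregs it was at 12.14 ± 0.61 in heart and 12.57 ± 0.72 in MLN. Lgmn, the lysosomal protease legumain, was at 5.0 to 5.79 and 0 to 0.13 (-6.02 ± 0.89, adjusted p = 0.00216). Ccr3, the eotaxin receptor, was at 4.97 to 6.50 and listed at 0 in all 4 libraries (-5.88 ± 1.21, adjusted p = 0.0321). In CCR8- Tregs Lgmn was at 4.20 ± 1.33 in heart and 4.92 ± 1.25 in MLN, and Ccr3 at 3.16 ± 2.16 and 3.29 ± 1.5. Tested against each other within CCR8- Tregs, the heart and MLN levels of these 5 genes gave adjusted p-values of 0.593 to 0.962. B cell markers averaged 1.53 to 2.90 in the MLN CCR8+ libraries, and their part in these differences was not tested.

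Other genes went the opposite way. Egr1 and Myc, both induced by antigen and growth signals, were lower in heart than in MLN in CCR8+ Tregs, by -2.62 and -2.81. In CCR8- Tregs their differences were 2.17 and 1.35, neither of which passed the test, and the difference of differences was 4.79 ± 0.91 for Egr1 and 4.16 ± 0.83 for Myc (adjusted p = 0.0188 and 0.0283). Ctsw, a protease of cytotoxic lymphocytes, was called higher in heart CCR8- Tregs by 1.60 ± 0.36 (adjusted p = 0.0144; 0.0521 without heart replicate 2) and lower in heart CCR8+ Tregs by -1.98 (3.57 ± 0.51, adjusted p = 0.00154). Snapc2, of the complex that starts small nuclear RNA transcription, was at 5.22, 5.48, 5.0 and 4.32 in heart and at 0.29, 0, 2.45 and 2.06 in MLN CCR8- Tregs, and differed by -0.64 in CCR8+ Tregs (4.44 ± 0.86, adjusted p = 0.0214). In CCR8- and CCR8+ libraries alike, fewer cells expressing a gene and less of its RNA per cell cannot be told apart.

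**Figure D5:**
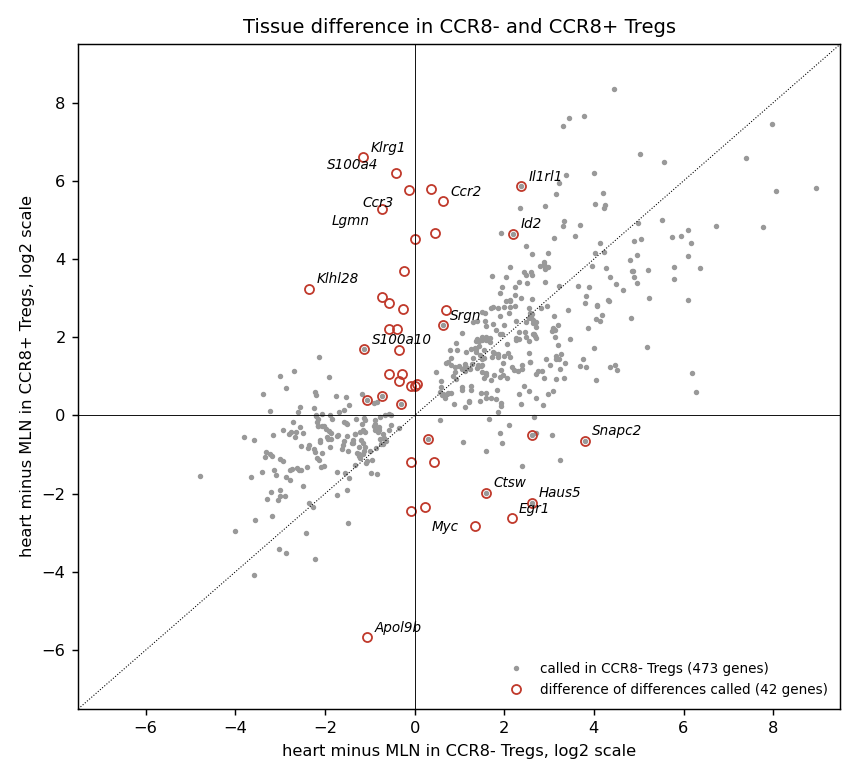
Difference between heart and MLN on the log2 scale in CCR8- Tregs (horizontal axis) and in CCR8+ Tregs (vertical axis) for the 473 genes called in CCR8- Tregs (grey) and the 42 genes whose tissue difference differed between the sorts (red circles); the dotted line marks equal differences. Klrg1 lies at -1.15 and 6.6 and Snapc2 at 3.80 and -0.64.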

How the data were processed

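The deposited table gives 1 value per gene and library on a log2 scale, labelled FPKM in the file header; the authors' log2(FPKM + 1) form was inferred, since the labels do not state the log, the offset or the unit. Every library has the same highest value, 14.899, and without the log each sums to about the same total, so values were equalised between libraries and could also be TPM. Reads behind a value are unknown. HISAT2 2.0.5, featureCounts 1.5.0-p3 and mm10 (GRCm38) are named in the submitters' processing notes, and an NEBNext Ultra kit in the labels.

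Of 19219 entries, 24 named as dates were left out. The 10369 genes that reached an FPKM of 1 in 4 or more of the 16 libraries were tested with limma 3.58.1 in R 4.3.3 (1 mean per group, variance trend, two-sided), with Benjamini-Hochberg adjustment over all of them. A fold is in FPKM + 1 and understates changes of low genes. The method was tested on simulated data. Members, gene lists and promoters were chosen with earlier results of these data known. Named genes were chosen by name, by largest difference or smallest p without overlap, and as called list members; Snapc2, Hilpda and other examples outside this rule were chosen after their values were seen. Promoters are from RefSeq. One result is not reported here. Alternatives are given at the end.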

Additional observations from a re-analysis of the deposited data

Results flagged for a closer look

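Among 216 groups of 4 libraries of the genes described, 25 had 1 library far from the other 3; chance gives about 1 in 20, which does not apply where the other 3 values are equal (Calca, Atf3, Fabp4, Cxcl2, C1qb, Pparg and Rps27). In MLN replicate 3 these were Tnfrsf1b at 3.34, Calca at 0.34, Atf3 at 0.19, Atp5md at 10.12, S100a10 at 12.18, Fabp4 at 0.66, Cxcl2 at 0.28, C1qb at 0.28 and S100a4 at 11.49. In MLN replicate 4 they were Pparg at 0.47, Cxcr4 at 2.74, Bhlhe40 at 1.81 and Rps27 at 14.3. In MLN replicate 2 they were Nfkbiz at 5.36 and Dnaja1 at 7.35, and in MLN replicate 1 Foxp3 at 5.72 and Anxa1 at 4.53. In heart replicate 3 they were Batf at 7.55, Tnfrsf9 at 7.14, Cd3g at 10.24 and Sparc at 10.8. The remaining ones were Il10 at 9.1 in heart replicate 1, Rps27 at 14.6 in heart replicate 2, and S1pr1 at 8.44 and Haus5 at 1.04 in heart replicate 4.

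The tissue difference in CCR8- Tregs minus that in CCR8+ Tregs passed the test (limma) in 19 of the genes described. It was -7.75 for Klrg1, -6.62 for S100a4, -6.02 for Lgmn, -5.88 for Ccr3, -5.59 for Klhl28, -4.83 for Ccr2, -3.48 for Il1rl1, -2.82 for S100a10, -2.45 for Id2, -1.67 for Srgn, -1.21 for Ifi27l2a and -0.59 for Tmsb4x. It was 4.84 for Haus5, 4.79 for Egr1, 4.61 for Apol9b, 4.44 for Snapc2, 4.16 for Myc, 3.57 for Ctsw and 0.89 for Rps27. Rps27 and Tmsb4x are among the most abundant transcripts, where every library shares the same few top values, and Rps27 has near-identical copies.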

How the results depend on the processing

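The count of 473 genes (306 higher, 167 lower) fell to 305 (195 and 110) when low values were not filtered, 204 (151 and 53) with only the 2 groups compared, and 14 (11 and 3) with the markers of other cells as a covariate, which moved the median of all genes from -0.0951 to 0.0576. Array weights gave 108 lower genes. Leaving out 1 library at a time gave 266 to 483 genes, 192 to 316 higher and 74 to 167 lower; the lower genes were 109 in the fit that omits heart CCR8- replicate 3, 91 for MLN CCR8- replicate 3 and 74 for the fourth MLN CCR8- library. Among alternatives added after the data were seen, leaving out both MLN replicates 3 and 4 gave 212 (158 and 54), both heart replicates 3 and 4 gave 226 (137 and 89), and both MLN replicates 1 and 2 gave 539. The CCR8+ comparison had 412 genes with the covariate and 696 to 1115 with 1 library left out; the difference of differences had 18 without the filter and 28 to 62 with 1 library left out, against 42. A pseudocount of 0.1, a minimum FPKM of 5, other scalings and array weights gave 354 to 499. A replicate block gave 437 genes (284 higher, 153 lower); libraries with equal numbers did not deviate together (r from -0.0546 to 0.0054), so the numbers were not treated as pairs. The cause of these shifts was not tested.

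Among the genes named, those that changed sign did not pass the test in any of the fits that did so. With the covariate these were Batf (0.78), Klrg1 (1.79), S1pr1 (-0.10), Tcf7 (0.13), Egr1 (-0.17) and Ccr3 (1.49), and with array weights Ccr3 (0.25). With 1 library left out, the differences ranged from -0.37 to 0.17 for Batf, -1.94 to 0.45 for Klrg1, -0.15 to 0.73 for S1pr1, -0.32 to 0.04 for Tcf7 and -0.67 to 0.93 for Ccr3. Without MLN replicates 1 and 2 they were Il2ra (-0.02), Batf (0.13), Tcf7 (0.19), Lgmn (0.34) and Ccr3 (1.08), without MLN replicates 3 and 4 S1pr1 (-0.79) and Cd3g (0.01), and without heart replicates 3 and 4 Batf (0.23), Klrg1 (0.07), Tcf7 (0.06) and Ccr3 (0.94).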
